A study of Saccharomyces cerevisiae with 14 samples.

Results

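The cofilin variants with Ala or Ser at position 5 were taken by name. A variant is named by the residues at positions 2 to 5 of human cofilin-1, and every name that ends in A or S belongs to the set. The rule uses no measured value of a variant, but the set was chosen with earlier results of these data known. It holds 1600 of the 16000 library variants, 800 with Ala5 and 800 with Ser5. Each residue set holds 400 variants with Ser3, 400 with Thr3, and 40 with each of the 20 residues at position 2 and at position 4. The human residue at position 5 is Val.

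All libraries came from 1 Saccharomyces cerevisiae strain, TeTO7-COF1 (TH_5610), in which doxycycline (DOX) switches off the endogenous cofilin gene COF1. All cells carried a plasmid for FLAG-tagged full-length LIMK1 under the GAL1 promoter, which galactose induces and glucose represses. They also carried library plasmid, a high-copy vector with His6-tagged human cofilin-1 under the constitutive GPD promoter. How many variants a single cell held is not stated. Each of 3 screens gave 8 libraries, and the screens share 1 stock of transformed yeast that had been frozen in aliquots, so the spread between them is that of repeat cultures. The T-1 library came from glucose medium without DOX, and the T0 library from raffinose medium with DOX. The T0 culture was split, and the T1, T2 and T3 libraries came from successive growth cycles with DOX in either glucose or raffinose with galactose. A share of reads counts plasmids, so fewer cells and fewer plasmid copies per cell cannot be told apart.

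Cofilin severs and depolymerises actin filaments, and its short N-terminal tail takes part in binding actin. LIM kinases such as LIMK1 phosphorylate Ser3 of this tail, which switches cofilin off, and Thr in that place is a poor substrate. Yeast cannot grow without a working cofilin, so when COF1 is off, a plasmid is kept in the pool only as far as its cofilin supports growth. Ala and Ser are both small residues and differ by a hydroxyl group on the side chain of Ser.

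Ala5 was always encoded as GCT and Ser5 as TCT, so that partners with the same positions 2 to 4 differ in a single codon. The sequences below are the coding sequences of positions 2 to 5 from 5′ to 3′, with the codon of position 5 in capitals. They are the human tail, its Ala5 and Ser5 forms, and the partners on which the largest differences between Ser5 and Ala5 rest.
ASGV: gctagcggtGTT
ASGA: gctagcggtGCT
ASGS: gctagcggtTCT
WSLA: tggagcctgGCT
WSLS: tggagcctgTCT
FTPA: ttcaccccgGCT
FTPS: ttcaccccgTCT
STIA: tctaccatcGCT
STIS: tctaccatcTCT
TSAA: actagcgctGCT
TSAS: actagcgctTCT
QSGA: cagagcggtGCT
QSGS: cagagcggtTCT
SSNA: tctagcaacGCT
SSNS: tctagcaacTCT

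The 24 libraries held 7185497 to 61265998 reads (median 23863730). The median number of reads per Ala5 or Ser5 variant ran from 616 to 1339 at T0 and from 66 to 282 at T2 in glucose, and fell to 18 to 76 at T3 in galactose. No variant of the set was at 0 reads at T0 or T1, and at most 37 of 1600 were at 0 in a later library.

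Both sets lost ground in the pool in either medium. Ala5 variants held 3.85%, 3.59% and 3.55% of all reads at T0 in the 3 screens and 1.38%, 1.27% and 1.40% at T3 in galactose. Ser5 variants held 5.12%, 4.59% and 4.61% at T0 and 2.07%, 1.94% and 2.20% at T3 in galactose. Every screen was lower at the end than at the start for both residues.

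In glucose the mean share of Ala5 was 3.66% (SD 0.16) at T0, 3.31% (SD 0.13) at T1, 2.09% (SD 0.10) at T2 and 1.75% (SD 0.12) at T3. The mean share of Ser5 was 4.77% (SD 0.30), 4.37% (SD 0.07), 2.45% (SD 0.16) and 1.87% (SD 0.31) at the same time points. The lead of Ser5 over Ala5 at T0 had thus narrowed at T3 in glucose to a difference smaller than the SD of Ser5. In galactose the difference also became smaller but stayed larger than either SD, with 1.35% (SD 0.07) for Ala5 and 2.07% (SD 0.13) for Ser5 at T3.

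Split by position 3, Ser3 and Thr3 variants differed between media in opposite directions. Ala5 variants with Ser3 went from 1.65% (SD 0.03) of reads at T0 to 0.846% (SD 0.02) at T3 in glucose and 0.352% (SD 0.01) at T3 in galactose. Ala5 variants with Thr3 went from 2.01% (SD 0.13) to 0.901% (SD 0.10) and 0.998% (SD 0.06). Ser5 variants with Ser3 went from 2.20% (SD 0.08) to 0.864% (SD 0.13) and 0.660% (SD 0.06), and those with Thr3 from 2.57% (SD 0.23) to 1.00% (SD 0.18) and 1.41% (SD 0.08). For both residues, the Ser3 share was lower in galactose than in glucose at T3, and the Thr3 share was not.

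The decline of the typical member took place mostly in the first 2 growth cycles and went on in the third. The median log2 change of Ala5 variants in glucose was −1.44 (SD 0.15 over screens) from T0 to T1, −1.70 (SD 0.44) from T1 to T2 and −0.21 (SD 0.09) from T2 to T3. The same medians for Ser5 were −1.37 (SD 0.15), −1.88 (SD 0.45) and −0.26 (SD 0.12). In galactose the medians were −1.78, −1.99 and −0.64 for Ala5 and −1.67, −1.97 and −0.69 for Ser5. Over all 16000 variants the first glucose interval had a median of −2.17 (SD 0.18) and the second of −1.63 (SD 0.41).

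Function without LIMK1 was read from the change between T0 and T2 in glucose. Tested with edgeR with the screen as a block (adjusted p under 0.05 over all 16000 variants), 99 of 800 Ala5 variants rose, 559 fell and 142 were not called. Of the 800 Ser5 variants, 92 rose, 578 fell and 130 were not called. Over the whole library, 20.9% of variants rose and 70.0% fell, against 12.4% and 69.9% for Ala5 and 11.5% and 72.2% for Ser5. The median log2 change was −3.51 for Ala5, −3.72 for Ser5 and −4.15 for all variants. Of the called variants, 656 of 658 with Ala5 and 667 of 670 with Ser5 changed in the same direction in every screen.

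These counts are relative to the pool and move with the scaling: TMM scaling gave 270 Ala5 variants that rose and 322 that fell, and 269 and 368 for Ser5. Without replicate 1, 59 Ala5 variants rose. With a score that averages the T2 over T0 ratio of fractions before taking log2, 173 Ala5 variants (171, 169 and 168 in single screens) and 159 Ser5 variants (154, 142 and 166) lay above 0. The Ala5 count was the higher one in every screen, in the third by less than the SD of the Ser5 counts.

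Members that rose were concentrated at a few residues of position 4. Leu4, Trp4 or Gly4 was present in 74 of the 99 Ala5 variants that rose and in 60 of the 92 Ser5 variants that rose. These residues were chosen with the glucose results known, and their share among all library variants that rose was not counted. Whether the concentration is particular to Ala5 and Ser5 or holds for the whole library was therefore not tested. With Leu4, 30 of 40 Ala5 variants and 29 of 40 Ser5 variants rose, with median log2 changes of 1.97 and 1.84. With Trp4, 24 of 40 and 22 of 40 rose, and the medians were 1.27 and 1.18. Leu4 and Trp4 were thus the highest residues beside either partner.

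At the other end stood mostly large polar and charged residues, and Pro4 with Ala5. All 160 Ala5 variants and all 160 Ser5 variants with Gln4, Lys4, Arg4 or Glu4 fell, with medians of −4.74 and −4.96. These residues were chosen with the glucose results known. How many of all library variants with them fell was not counted, and 70.0% of the whole library fell. Asp4 and His4 stood higher with Ala5, with means of −3.81 and −3.65. Averaged over 40 variants, the lowest position 4 means for Ala5 were Glu4 (−5.09, SD 0.99 over screens), Pro4 (−4.53, SD 0.48), Arg4 (−4.41, SD 0.72) and Gln4 (−4.33, SD 0.78). For Ser5 they were Lys4 (−4.97, SD 0.93), Glu4 (−4.89, SD 0.89), Arg4 (−4.81, SD 0.76) and Asp4 (−4.74, SD 0.78). Neighbours in each order differed by less than the larger of their SDs, which are over screens and hold shifts that residues of a screen share.

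The highest position 4 means for Ala5 were Leu4 (1.56, SD 0.26), Trp4 (0.79, SD 0.17), Gly4 (0.63, SD 0.28) and Phe4 (−0.59, SD 0.13). For Ser5 they were Leu4 (1.51, SD 0.36), Trp4 (0.63, SD 0.41), Met4 (−0.47, SD 0.07) and Gly4 (−0.77, SD 0.16). With Ala5, Trp4 was above Gly4 in every screen (0.88, 0.60 and 0.90 against 0.80, 0.31 and 0.79), by less than the SD of Gly4. Gly4, the human residue, lay more than 1 log2 unit below Trp4 with Ser5.

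At position 2, aromatic and long aliphatic residues stood highest and acidic residues lowest. The highest means for Ala5 were Phe2 (−0.71, SD 0.11), Leu2 (−0.79, SD 0.14), Met2 (−1.18, SD 0.17) and Tyr2 (−1.78, SD 0.27). For Ser5 they were Phe2 (−0.87, SD 0.24), Leu2 (−1.32, SD 0.33), Trp2 (−1.64, SD 0.34) and Met2 (−1.96, SD 0.32). The means of Phe2 and Leu2 differed by less than either SD with Ala5 and by more than either SD with Ser5.

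The lowest position 2 means for Ala5 were Asp2 (−4.48, SD 0.74), Glu2 (−4.26, SD 0.75), Lys2 (−3.61, SD 0.56) and Gly2 (−3.56, SD 0.51). For Ser5 they were Asp2 (−4.46, SD 0.67), Glu2 (−4.42, SD 0.88), Asn2 (−3.62, SD 0.56) and Lys2 (−3.59, SD 0.64). With Asp2 or Glu2, 75 of 80 Ala5 variants and 74 of 80 Ser5 variants fell, and 1 of 80 rose in each set.

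The single variants at the top were nearly all Leu4 variants. The 5 highest Ala5 variants were PTLA (log2 change 3.14, SE 0.27), CTLA (2.91, SE 0.32), YTLA (2.81, SE 0.25), LSLA (2.81, SE 0.24) and PSLA (2.72, SE 0.26). The fraction of PTLA rose 10.3-, 7.48- and 8.94-fold in the 3 screens. The 5 highest Ser5 variants were PSLS (3.28, SE 0.42), PTLS (3.06, SE 0.23), WSLS (3.04, SE 0.47), HSLS (2.53, SE 0.37) and PSWS (2.51, SE 0.44). The fraction of PSLS rose 14.4-, 6.91- and 9.26-fold. The human tail ASGV rose 7.44-, 9.95- and 10.0-fold, which overlaps the range of these Pro2-Leu4 variants.

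The 5 lowest were SSEA (−6.60, SE 0.80), NSHA (−6.54, SE 0.80), ESAA (−6.45, SE 0.83), QSSA (−6.44, SE 0.73) and DSDA (−6.43, SE 0.85) with Ala5. With Ser5 they were ASRS (−6.56, SE 0.71), GSDS (−6.47, SE 0.59), DTDS (−6.34, SE 0.65), KSKS (−6.33, SE 0.72) and TSKS (−6.31, SE 0.77). These 10 changes differ from each other by less than their SE. Of the 10, 9 have Ser3, and their fractions at T2 were a few hundredths of those at T0 or less.

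The difference between Ser5 and Ala5 was read from the 800 pairs with the same positions 2 to 4. By limma on 1 difference per screen, 94 pairs were higher with Ser5 and 146 with Ala5 (adjusted over all 152000 pairs of 2 residues at position 5), which is 30.0% of the pairs against 58.5% of all such pairs. Without replicate 1, the counts were 61 and 89. The mean difference, Ser5 minus Ala5, was −0.14, −0.17 and −0.30 in the 3 screens. Averaged by position 3, limma called neither the difference with Ser3 (−0.16, 95% confidence interval −0.63 to 0.30, adjusted p = 0.445) nor that with Thr3 (−0.25, −0.73 to 0.23, adjusted p = 0.276). In single screens it was −0.15, −0.14 and −0.20 with Ser3 and −0.14, −0.21 and −0.40 with Thr3. The intervals are wider than this spread because limma draws each variance toward a value shared by all contrasts.

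Over single residues of position 4 the differences ran in opposite directions. Of 20 residues there, limma called 9, 3 higher with Ser5 and 6 with Ala5 (over positions 2, 3 and 4, 13 of 42 residues were called, against 77.8% of all such contrasts between residues at position 5). With Ile4 the mean was −1.15 for Ser5 and −3.31 for Ala5, a difference of 2.16 (SE 0.18, adjusted p = 0.000230). With Met4 the difference was 0.99 (SE 0.20, adjusted p = 0.00690 by limma) and with Pro4 0.60 (SE 0.19, adjusted p = 0.0366). Of the 40 single Ile4 pairs, 27 were higher with Ser5 and 1 with Ala5.

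The opposite held for Asn4 and Gly4. With Asn4 the mean was −3.13 for Ser5 and −1.27 for Ala5, a difference of −1.86 (SE 0.24, adjusted p = 0.00110 by limma). With Gly4 the means were −0.77 and 0.63, a difference of −1.40 (SE 0.19, adjusted p = 0.00138 by limma). Asp4 (−0.93), Ser4 (−0.88), Tyr4 (−0.74) and Lys4 (−0.66) were also lower with Ser5. Among single pairs, Ala5 was higher in 24 of 40 with Asn4 and in 20 of 40 with Gly4, and Ser5 in 2 and 0.

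No difference was called for Leu4 or Trp4. The Leu4 difference was −0.05 (95% confidence interval −0.55 to 0.45, adjusted p = 0.818 by limma), and the Trp4 difference was −0.16 (SE 0.21, adjusted p = 0.510). At position 2, Met2 (−0.78), Ser2 (−0.62), Thr2 (−0.61) and Arg2 (−0.59) were lower with Ser5, and no residue was higher. The Met2, Ser2, Thr2 and Arg2 calls were lost without replicate 1 and without replicate 2, as were those of Asp4, Lys4, Pro4, Ser4 and Tyr4, while Met4 was lost without replicate 1 alone. Without replicate 1, 1 of the 3 residues higher with Ser5 and 2 of the 10 higher with Ala5 were called, and without replicate 2 also 2 of the 10.

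The pairs with the largest differences were chosen for their size, so their p values are a description. FTPS, at 40.7, 41.4 and 29.1 RPM (reads per 1000000 reads of the library) at T0, stood at 62.5, 78.3 and 84.9 at T2 in glucose. FTPA, at 38.3, 53.7 and 41.6 at T0, stood at 2.10, 5.65 and 2.29. The 2 variants started alike and did not overlap at T2, and the difference of their changes was 4.89 (SE 0.56, adjusted p = 2.4e-05 by limma).

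WSLS went from 9.22, 23.4 and 14.3 RPM at T0 to 97.3, 128 and 139 at T2. WSLA went from 1.69, 4.52 and 1.40 to 0.699, 1.21 and 0.486. This difference of 4.60 (SE 0.52, adjusted p = 2.3e-05 by limma) stands apart from the mean of −0.05 over all Leu4 pairs, and WSLA had few reads already at T0. STIS exceeded STIA by 4.29 (SE 0.56, adjusted p = 6.6e-05).

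In the other direction, QSGA went from 32.2, 42.9 and 49.0 RPM at T0 to 216, 202 and 198 at T2, while QSGS went from 28.1, 30.5 and 19.7 to 2.55, 1.93 and 4.93. The groups did not overlap at T2, and Ser5 minus Ala5 was −5.47 (SE 0.61, adjusted p = 2.2e-05 by limma). TSAS was below TSAA by a difference of −5.69 (SE 0.62, adjusted p = 1.9e-05 by limma), and SSNS below SSNA by −5.32 (SE 0.55, adjusted p = 1.3e-05).

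Against residues of related shape, Ala5 and Ser5 stood low. In 800 pairs of Thr5 with Ser5, which differ by a methyl group, Thr5 was higher in 601 and Ser5 in 8 by limma, with a mean difference of 3.30 (SD 0.41 over screens). The Thr5 difference was 2.32 (SD 0.29) with Ser3 and 4.28 (SD 0.55) with Thr3. Cys5, which has a thiol in place of the hydroxyl, exceeded Ser5 in 524 pairs and was lower in 12, with a mean difference of 2.60 (SD 0.37). Val5, which is larger than Ala5 and branched, exceeded it in 559 pairs and was lower in 6 (mean difference 2.82, SD 0.32). In either direction, limma called 76.1% of the Thr5 and Ser5 pairs, 67% of the Cys5 and Ser5 pairs and 70.6% of the Val5 and Ala5 pairs. Of all pairs at position 5, 58.5% were called.

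Gly5, with no side chain, was lower than Ala5. Ala5 exceeded Gly5 in 290 of 800 pairs and was lower in 99 by limma, with a mean difference of 1.11 (SD 0.19), and 48.6% of these pairs were called against 58.5% of all pairs at position 5. The difference was 0.75 (SD 0.13) with Ser3 and 1.48 (SD 0.25) with Thr3.

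Thr3 was higher than Ser3 more often than the reverse. Of the 400 Ala5 pairs that differ at position 3, Thr3 was higher in 89 and Ser3 in 29 by limma (adjusted over all 8000 pairs). Of the 400 Ser5 pairs, Thr3 was higher in 92 and Ser3 in 42. In the whole library, 18.4% of pairs were higher with Thr3 and 7.34% with Ser3. The mean difference, Thr3 minus Ser3, was 0.56 (SD 0.19 over screens) for Ala5 and 0.48 (SD 0.09) for Ser5, and 0.45 (SD 0.06) for all pairs. Without replicate 2, 54 and 15 Ala5 pairs and 40 and 14 Ser5 pairs were called, and without replicate 1, 18 Ala5 pairs were higher with Ser3.

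The sign of this difference varied with position 4 too. With Asn4, Thr3 exceeded Ser3 by a mean of 1.42 (SD 0.08) for Ala5 and 2.99 (SD 0.65) for Ser5, and 15 of 20 Ser5 pairs were called higher with Thr3. With Gly4, Ser3 exceeded Thr3: the differences were −1.53 (SD 0.32) for Ala5 and −1.28 (SD 0.28) for Ser5, with 7 and 11 of 20 pairs called. Val4 gave −0.11 (SD 0.19) with Ala5 and −1.62 (SD 0.36) with Ser5, where Ser3 was called higher in 9 of 20 pairs.

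Among pairs higher with Thr3, the largest differences were at Asn4 and His4. With Ala5, VTNA exceeded VSNA by 5.73, RTNA exceeded RSNA by 5.33 and CTNA exceeded CSNA by 5.05 (limma adjusted p 0.00124 to 0.00225). With Ser5, CTNS exceeded CSNS by 6.01, YTHS exceeded YSHS by 4.92 and VTNS exceeded VSNS by 4.66 (limma adjusted p 0.00126 to 0.00153). All 6 have Asn4 or His4.

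In the other direction, ETGA minus ESGA was −5.64, DTWA minus DSWA −4.20 and NTWA minus NSWA −3.51 (limma adjusted p 0.00126 to 0.0129). For Ser5, LTPS minus LSPS was −4.72, LTIS minus LSIS −4.50 and PTPS minus PSPS −4.32 (limma adjusted p 0.00417 to 0.0118). The last of these, with values of −2.34, −3.98 and −6.63 in the 3 screens, was not called without replicate 2.

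Before the split, when DOX was added and cells moved from glucose to raffinose, changes were smaller. From T-1 to T0 edgeR called 180 Ala5 variants up and 274 down, and 188 and 211 Ser5 variants. In all 16000 variants 24.2% rose and 33.1% fell. More Leu4, Trp4 and Gly4 variants fell than rose here: with Leu4, Trp4 or Gly4, 6 of 120 Ala5 variants rose and 64 fell, and 8 and 57 of 120 Ser5 variants. The median change of Leu4 variants was −0.62 with Ala5 and −0.68 with Ser5, against −0.20 and −0.04 for all variants of the sets. Leu4, Trp4 and Gly4 were chosen for their rise in glucose, which starts from the same T0 libraries. A low T0 value lowers the change from T-1 to T0 and raises the change in glucose, so their fall here is not independent of that choice.

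In galactose, over the same interval as the glucose score and against the same T0 libraries, 75 Ala5 variants rose and 600 fell, and 91 and 587 Ser5 variants (edgeR). In the whole library 19.0% rose and 71.6% fell. With Gly4, 5 of 40 variants rose with either residue. With Leu4, 31 of 40 Ala5 and 32 of 40 Ser5 variants rose, and with Trp4, 21 and 25.

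The LIMK1 effect compares how far a variant changed between T1 and T3 in the 2 media, as galactose minus glucose on the log2 scale. Sugar and LIMK1 induction change together and cannot be told apart in it. Over all variants its median was −0.67, and edgeR, with the culture as a block, called 3.57% up and 9.89% down. For Ala5, 7 variants rose and 78 fell (0.875% and 9.75%), and for Ser5, 44 rose and 36 fell (5.50% and 4.50%). Without replicate 3, 0 Ala5 and 9 Ser5 variants rose and 50 Ala5 variants fell. Without replicate 2, 18 Ser5 variants rose, and without replicate 1, 43 Ala5 variants fell. With DESeq2's size factors, which move the median of all variants by 0.82, 38 and 30 Ala5 variants rose and fell, and 80 and 19 Ser5 variants.

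Calls that fell were mostly Ser3 variants and calls that rose mostly Thr3 variants. How many of all library variants with Ser3 or with Thr3 were called was not counted. Whether this split is particular to Ala5 and Ser5 was therefore not tested. With Ser3, no Ala5 variant rose and 73 of 400 fell by edgeR (0 rose and 124 fell at an unadjusted p under 0.05, 0 and 87 by DESeq2's Wald test). With Thr3, 7 Ala5 variants rose and 5 fell. Of Ser5 variants with Ser3, 2 rose and 35 fell, and with Thr3, 42 rose and 1 fell. Most variants without a LIMK1 call were already depleted by edgeR in the test of function without LIMK1. With Ser3 these were 282 Ala5 and 291 Ser5 variants, and with Thr3, 268 and 276. Of the 73 and 35 Ser3 variants that fell, 7 and 5 were depleted there. Median reads per variant were 18 to 76 at T3 in galactose, so a missing call does not show a missing LIMK1 effect.

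The lowest LIMK1 effects belonged to variants with Ser3 and Gly4, as in the human tail. The 5 lowest Ala5 effects were TSGA (−4.40, SE 0.25), ISGA (−4.26, SE 0.75), WSGA (−4.25, SE 0.33), FSGA (−4.14, SE 0.31) and PSGA (−4.12, SE 0.93). The 5 lowest Ser5 effects were WSGS (−3.84, SE 0.55), HSGS (−3.76, SE 0.28), SSGS (−3.69, SE 0.26), NSGS (−3.68, SE 0.65) and CSGS (−3.50, SE 0.23). TSGA stood at 278, 242 and 259 RPM at T1 in galactose and at 10.5, 22.0 and 14.6 at T3, but at 310, 297 and 337 at T3 in glucose. The 3 galactose values at T3 lie far below all the others.

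Of the 20 Ser3-Gly4 variants, 19 fell with Ala5 and 12 with Ser5 by edgeR. How many of all library variants with the same residues at positions 3 and 4 fell was not counted, here or for Trp4 and Leu4 below. The mean effect was −3.83 with Ala5 and −2.62 with Ser5, a difference of 1.20 (SE 0.21, adjusted p = 9.4e-05 by limma). Taken from the summed reads of the 20 variants, the difference was smaller and uneven, at 0.11, 0.80 and 0.92 in the 3 screens. The summed share of reads went from 0.201%, 0.165% and 0.179% at T1 to 0.0118%, 0.0161% and 0.0131% at T3 in galactose for Ala5. For Ser5 it went from 0.200%, 0.148% and 0.177% to 0.00991%, 0.0148% and 0.0137%. The galactose shares of both sets overlapped at both times. In glucose they did not overlap at T3: Ala5 went from 0.143%, 0.152% and 0.152% at T1 to 0.165%, 0.152% and 0.192%, and Ser5 from 0.159%, 0.149% and 0.158% to 0.143%, 0.0882% and 0.111%.

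For Trp4 and Leu4 the sets separated at T3 in galactose, and for Leu4 they also separated in glucose, in the other direction. The groups of Ser3-Trp4 variants held 0.219%, 0.201% and 0.211% of reads with Ala5 and 0.194%, 0.200% and 0.200% with Ser5 at T1 in galactose. At T3 they held 0.0781%, 0.0709% and 0.0774% with Ala5 and 0.194%, 0.148% and 0.188% with Ser5. The sets did not overlap at T3, with Ser5 the higher in every screen. In glucose at T3 they held 0.172%, 0.156% and 0.158% with Ala5 and 0.177%, 0.124% and 0.148% with Ser5, which overlap.

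As a LIMK1 effect, Ser3-Trp4 variants had a mean of −1.18 with Ala5 and −0.09 with Ser5, a difference of 1.09 (SE 0.21, adjusted p = 0.000270 by limma). All 20 pairs had a higher mean effect with Ser5, 16 of them in every screen. By summed reads the difference was 1.48, 1.28 and 1.39. Of single variants, edgeR called 9 of 20 down with Ala5 and 0 of 20 with Ser5, where 1 was down and 1 up at an unadjusted p under 0.05 and DESeq2's Wald test called 0.

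Ser3-Leu4 variants had a mean LIMK1 effect of −0.87 with Ala5 and 0.10 with Ser5, a difference of 0.97 (SE 0.21, adjusted p = 0.000619 by limma). Of the 20 pairs, 19 had a higher mean effect with Ser5, and 16 in every screen. By summed reads the difference was 0.75, 1.04 and 1.00. The summed share went from 0.215%, 0.243% and 0.233% at T1 to 0.202%, 0.176% and 0.202% at T3 in galactose with Ala5, and from 0.207%, 0.242% and 0.216% to 0.312%, 0.255% and 0.306% with Ser5. In galactose the Ala5 set thus lost share and the Ser5 set gained it in each screen. In glucose the share went from 0.209%, 0.213% and 0.196% at T1 to 0.281%, 0.315% and 0.279% at T3 with Ala5. With Ser5 it went from 0.212%, 0.214% and 0.194% to 0.272%, 0.225% and 0.225%. The sets did not overlap at T3 in glucose either, with Ala5 the higher, so the LIMK1 effect holds differences in both media. Of single variants, edgeR called 11 of 20 down with Ala5, and 0 down and 2 up with Ser5.

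These differences were tested per position 3 and 4 together, a choice made after the calls of single variants had been seen, and 44.1% of all such contrasts between residues at position 5 were called. Of the 40 combinations, 6 had a higher LIMK1 effect with Ser5 and 0 with Ala5 (1 with Ala5 under limma's trend option). Besides Ser3-Gly4, Ser3-Trp4 and Ser3-Leu4, they were Ser3-Asn4 (0.64, SE 0.23, adjusted p = 0.0310 by limma), Thr3-His4 (0.61, SE 0.23, adjusted p = 0.0326) and Thr3-Met4 (0.53, SE 0.20, adjusted p = 0.040). Ser3-Asn4-Ser5 variants held few reads, 213 to 712 in sum at T3 in galactose.

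With Thr3 beside the same residues, no difference between Ser5 and Ala5 was called. The difference was 0.34 (95% confidence interval −0.08 to 0.77) for Thr3-Leu4, 0.29 (−0.15 to 0.73) for Thr3-Trp4 and 0.09 (−0.34 to 0.52) for Thr3-Gly4, and limma called none of these 3 (adjusted p 0.190 to 0.755). Of 20 pairs each, 15 with Thr3-Leu4, 16 with Thr3-Trp4 and 12 with Thr3-Gly4 had a higher mean effect with Ser5. In every screen, Ser5 was higher in 7, 7 and 5 of these pairs and Ala5 in 0, 1 and 6. By summed reads the difference was 0.15, 0.24 and 0.10 for Thr3-Leu4 and −0.09, 0.77 and 0.30 for Thr3-Trp4. The Thr3-Gly4 difference by summed reads was 0.28, 0.94 and 0.45, which overlaps that of Ser3-Gly4. Whether the Ser3 differences exceed the Thr3 differences was not tested. With Ser3-Met4 limma called no difference (−0.11, −0.53 to 0.32, adjusted p = 0.724), while by summed reads Ser5 was higher by 0.77, 0.60 and 0.51 in the 3 screens, and 8 Ser5 and 5 Ala5 variants fell.

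By single positions, limma called 7 residues with a higher LIMK1 effect for Ser5 (32.3% of all such contrasts were called) and 1 for Ala5, Asp4 (−0.48, SE 0.14). The 7 were Trp4 (0.69), Leu4 (0.66), Gly4 (0.65), His4 (0.48), Cys2 (0.48), Pro2 (0.48) and Met2 (0.42). Without replicate 2, 2 of the 7 and not Asp4 were called, and without replicate 3, 4 of the 7 and not Asp4. The His4 call was lost without replicate 1. Without the replicate block 0 residues were called in either direction, and with a pseudocount of 5, 3 for Ser5 and 0 for Ala5. Of the 800 single pairs, limma called 0 (0.0% of all 152000 pairs), with 66 higher for Ser5 and 20 for Ala5 at an unadjusted p under 0.05. As no pair of any residues was called, the 0 does not show that Ser5 and Ala5 partners are alike. The mean over the 800 pairs was 0.18, 0.23 and 0.20 in the 3 screens.

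The variants called with a positive LIMK1 effect were nearly all Thr3 variants. Of the 44 Ser5 variants among them, 10 had Met4, 9 Leu4, 7 Trp4 and 6 Phe4. The 3 highest Ser5 effects were VTLS (1.74, SE 0.43), CTIS (1.61, SE 0.44) and NTLS (1.61, SE 0.49), and the 3 highest Ala5 effects were MTFA (1.73, SE 0.37), CTFA (1.11, SE 0.28) and VTWA (1.09, SE 0.25). The 3 Ala5 calls were lost without replicate 3, CTIS without replicate 2 or 3, and NTLS without replicate 1 or 2. VTLS stood at 53.3, 85.6 and 71.7 RPM at T1 and 90.3, 79.3 and 80.4 at T3 in galactose, but at 82.8, 119 and 85.6 and then 30.2, 48.0 and 27.4 in glucose. Its galactose values overlapped between T1 and T3, while its glucose values did not.

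Partners that differ at position 3 share the change of sugar. The mean Thr3 minus Ser3 difference in LIMK1 effect was 1.12, 0.94 and 0.94 for Ala5 and 0.82, 0.70 and 0.78 for Ser5, against 0.69 (SD 0.10) for all 8000 pairs. The Ala5 values exceeded the Ser5 values in every screen. By limma, 52 of 400 Ala5 pairs and 30 of 400 Ser5 pairs were higher with Thr3 (9.40% of all pairs). With Ser3 higher, 0 pairs were called in either set (0.237% of all pairs), and 9 Ala5 and 7 Ser5 pairs had an unadjusted p under 0.05. When any 1 replicate was left out, no pair was called in either set.

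Gly4 had the most calls in both sets, and whether the sets differ by residue was not tested. With Gly4 the difference was 3.99 (SD 0.69) for Ala5 and 2.88 (SD 0.60) for Ser5, and 18 and 12 of 20 pairs were called. With Trp4 it was 1.82 (SD 0.21) and 1.03 (SD 0.35), with 9 and 1 called. With Leu4 it was 1.35 (SD 0.38) and 0.72 (SD 0.13), with 2 and 0. With Met4 it was 1.59 (SD 0.50) and 2.23 (SD 0.59), with 3 and 8.

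The tails closest to the human one, and those with Arg2, as in the residues Arg-Ser-Gly of yeast Cof1, come last. ASGA stood at 10.3, 11.5 and 4.60 RPM at T0 and at 65.9, 15.2 and 35.2 at T2 in glucose. It rose by edgeR (2.04, SE 0.72, adjusted p = 0.00560), but not without replicate 1. ASGS, at 12.4, 14.0 and 12.2 at T0, stood at 38.8, 7.02 and 68.3, and was not called (1.11, SE 0.73, adjusted p = 0.137 by edgeR). Its fraction was higher than at T0 in screens 1 and 3 and lower in screen 2, and without replicate 2 it was called (2.07).

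RSGA rose (1.69, SE 0.67, adjusted p = 0.0134 by edgeR), a call lost without replicate 1 or without replicate 2, and RSGS was not called (−0.50, SE 0.70, adjusted p = 0.488). With Thr3 in their place, ATGA (−1.14, SE 0.67) and RTGA (−0.07, SE 0.69) were not called, while ATGS (−2.14, SE 0.57, adjusted p = 0.000182 by edgeR) and RTGS (−2.91, SE 0.72, adjusted p = 7.6e-05) fell. ASGV rose by 3.18 (SE 0.24).

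The LIMK1 effect was −3.78 (SE 0.67) for ASGA, −3.35 (SE 0.66) for ASGS and −3.11 (SE 0.20) for ASGV, all called by edgeR. RSGA had −3.95 (SE 0.69, adjusted p = 2.1e-07 by edgeR) and RSGS −0.90 (SE 0.78, adjusted p = 0.479). RSGS held 31.7, 9.43 and 23.6 RPM at T1 and 3.83, 0.775 and 0.898 at T3 in galactose, and 9.35, 2.23 and 2.20 at T3 in glucose, so it was also low in glucose. None of the 4 Thr3 forms was called, with effects between 0.28 and 1.19.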

How the data were processed

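The authors amplified the variable region of library plasmids recovered from yeast, sequenced it on an Illumina instrument and counted reads per variant; the deposited values are raw read counts, and the program that assigned reads to variants is not given in the sources used here. The primers carry 8 random bases, and whether these were used to remove PCR duplicates is not stated, so counting error covers reads only. In screens 2 and 3 the T-1 column was assigned to the T0 sample, whose label names no medium. The 3 screens were joined by variant name. All 16000 coding sequences translate to their names. The plasmid pool before transformation (1 sample) was not analysed here, and no variant was filtered.

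The members and lists were chosen with earlier results of these data known. Fractions are reads over total reads of a library. For single variants the quasi-likelihood test of edgeR 4.0.16 was used, with total reads as library size and a block for each screen (each culture, for the LIMK1 effect). For pairs and residue means limma 3.58.1 was fitted to 1 value per screen, with 0.5 reads added before log2. P values were adjusted by the Benjamini-Hochberg method within each family of variants, pairs or contrasts, at a threshold of 0.05. SE is the absolute log2 fold change divided by the square root of F for edgeR. Libraries of a screen share a culture, which is the source of the pairing by replicate number. As deviations from the group means, T0 and T2 in glucose of the same number correlated at 0.14, −0.09 and −0.04 over all variants, and T1 and T3 at 0.24 to 0.45.

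Named variants are the 5 highest and 5 lowest changes in glucose and the 5 lowest and 3 highest LIMK1 effects per residue, called and of 1 sign in every screen (for LIMK1 with at least 30 reads at T1). The 3 most different pairs in each direction and the Gly4 forms of the human and Arg2 tails were added to them. The alternatives were TMM scaling, DESeq2 1.42.0 size factors and Wald test, scaling to reads of charged residues at position 5 or of ASGV, at least 10 reads at the start, a pseudocount of 5, an eBayes trend, no block, and leaving out each replicate. The tests were tested on simulated data: over 16000 variants edgeR recovered 52% of 100 planted log2 changes of 2 in glucose, and 42% in the LIMK1 contrast, and limma recovered 0% of such changes among 8000 position 3 pairs. Of planted changes of 4, limma found 76% of the glucose pairs and 0% of the LIMK1 pairs. The simulation planted only 100 changes of each size, while limma called 752 of the 8000 measured LIMK1 pairs higher with Thr3. The 0% therefore does not carry over to the measured position 3 pairs. R 4.3.3 and Python 3.11.15 were used.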

Additional observations from a re-analysis of the deposited data

Results flagged for a closer look

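The LIMK1 effect differed between Ser5 and Ala5 variants with the same residues at positions 3 and 4 in 6 of 40 combinations, by limma on 1 value per screen, against 44.1% of all such contrasts between residues at position 5. They are listed because the effects of 2 sets differed under 1 contrast; residues at single positions also differed, as given above. The difference, Ser5 minus Ala5, was 1.20 for Ser3-Gly4, 1.09 for Ser3-Trp4, 0.97 for Ser3-Leu4, 0.64 for Ser3-Asn4, 0.61 for Thr3-His4 and 0.53 for Thr3-Met4. By summed reads the Ser3-Gly4 difference was 0.11, 0.80 and 0.92 in the 3 screens (mean 0.61), below the means for Ser3-Trp4 (1.38) and Ser3-Leu4 (0.93). The first 3 were called under all 7 alternatives run, and the other 3 were not called in every one of them. The screen values from summed reads of the Ser3-Asn4 sets were 1.63, 0.20 and 2.22, so this difference varied most between screens. With groups of 3 screens, no single screen was tested for standing apart.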

How the results depend on the processing

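Changes of single variants are relative to the pool, so scaling moved them most, while differences between partners do not depend on it. The median of all variants in glucose moved by 2.88 under TMM, 3.99 under DESeq2 size factors, 4.38 when scaled to charged residues at position 5 and −3.17 when scaled to ASGV. In glucose, Ala5 variants that rose and fell numbered 270 and 322 under TMM, 349 and 174 under size factors and 380 and 87 under charged residues, and Ser5 variants 269 and 368, 336 and 233, and 365 and 127. Under ASGV scaling 0 rose in either set. Scores above 0 numbered 354, 483, 550 and 1 for Ala5 and 348, 445, 490 and 1 for Ser5 under these 4 scalings.

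In galactose, both sets together gave 503 risers under TMM, 683 (424 fell) under size factors, 686 (389 fell) under charged residues and 8 under ASGV. From T-1 to T0, 190 rose under charged residues, and 170 rose and 9 fell under ASGV. For the LIMK1 effect, size factors gave 38 and 30 Ala5 and 80 and 19 Ser5 variants up and down, charged residues 1 and 15 up, ASGV 616 and 650 up and 3 and 0 down, TMM 51 Ala5 variants down, and the DESeq2 Wald test 12 Ala5 variants up.

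Directions reversed under ASGV scaling in glucose for ASGA (−1.13), CTLA (−0.27), HSLS (−0.64), LSLA (−0.37), PSLA (−0.46), PSWS (−0.67), PTLA (−0.039), PTLS (−0.12), RSGA (−1.49), WSLS (−0.13) and YTLA (−0.37). ATGS reversed under TMM (0.74), size factors (1.86) and charged residues (2.24), and RTGS under the last pair (1.10 and 1.48).

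Without the replicate block, LIMK1 calls that rose fell to 0 for Ala5 and 9 for Ser5, residues with a higher Ser5 or Ala5 mean to 0 and 0, and combinations of positions 3 and 4 with a higher Ser5 mean to 3, and 1 Ala5 pair was higher with Ser3. With an eBayes trend, 5 residues were higher with Ser5 and 17 with Ala5 in glucose. For the LIMK1 effect, the trend gave 19 and 1 single pairs at position 5, 92 and 4 Ala5 pairs and 63 Ser5 pairs (Thr3 higher) at position 3, and 1 combination higher with Ala5, as did the minimum of 10 reads. A pseudocount of 5 gave 10 and 1 single pairs, 2 Ala5 pairs with Ser3 higher, and 3 and 0 residues. The cause was not tested.

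When each replicate was left out, risers in glucose ranged from 59 to 102 for Ala5. Pairs at position 5 ranged from 61 to 92 (Ser5 higher) and from 89 to 121 (Ala5 higher), and residues from 1 to 3 and from 2 to 11. Pairs at position 3 ranged from 54 to 86 and from 15 to 26 for Ala5, and from 40 to 85 and from 14 to 30 for Ser5. For the LIMK1 effect, Ala5 risers ranged from 0 to 8 and Ala5 variants that fell from 43 to 60, Ser5 risers from 9 to 40, residues from 2 to 7 and from 0 to 1, combinations higher with Ala5 from 0 to 1, and position 3 pairs were 0 throughout.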
